A study of Mus musculus with 12 samples.

Results

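The genes described here are 10 mouse genes of the contractile and actin cytoskeleton, taken by symbol from tables that hold 23284 gene symbols. They are the smooth muscle actins Acta2 and Actg2, the skeletal and cardiac muscle actins Acta1 and Actc1, the actin-binding proteins Tagln (transgelin) and Cnn1 (calponin 1), the myosin regulatory light chain Myl9, the tropomyosins Tpm1 and Tpm2, and Tnni1, the slow skeletal muscle form of troponin I. RNA came from cells labelled secondary 1B MEFs, mouse embryonic fibroblasts of a kind that carries reprogramming factors switched on by doxycycline (dox). There were 6 groups of 2 libraries: siMyc with dox and siMyc without dox, siGcn5 with dox and siGcn5 without dox, and siControl with dox and siControl without dox. SiMyc is an siRNA against c-Myc (gene Myc), siGcn5 an siRNA against the histone acetyltransferase Gcn5 (gene Kat2a), and siControl a control siRNA. Cells with dox had received it for 2 days, starting a day after transfection, in a medium for embryonic stem cells. The libraries without dox are labelled MEF, and their medium and time of harvest are not clear from the labels, so dox, time and medium cannot be told apart. Pools of siRNAs and single siRNAs are both mentioned in the labels, with neither tied to these libraries. The labels do not say whether replicates were grown apart, and p-values here reflect differences among the deposited libraries only, and these could be technical.

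Actin filaments and myosin II make up the contractile apparatus of smooth muscle and, in fibroblasts, the stress fibres. Tropomyosins lie along the filament, calponin and transgelin bind it, and phosphorylation of the myosin regulatory light chain by myosin light chain kinase starts contraction. Acta2 marks smooth muscle and contractile fibroblasts (myofibroblasts). Many of these genes are targets of the transcription factor Srf, which binds the CArG box and works with the coactivators Mkl1 and Mkl2. Unpolymerised actin holds these coactivators back from the nucleus. Reprogramming of fibroblasts to pluripotent cells is known to begin with a loss of mesenchymal features.

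Values are RPKM, read numbers divided by gene length and by the total of the library, as the authors deposited them. Gene reads recovered from the values ran from 65545587 to 188131691 per library. In RPKM, fewer cells of a type and less RNA per cell cannot be told apart. Each log2 change comes from limma on log2(RPKM + 1) values of 13175 genes, those that reached an RPKM of 1 in 2 libraries or more. A gene is called at a Benjamini-Hochberg adjusted p under 0.05, two-sided. Values after ± are SDs over 2 libraries. Whether the libraries of groups overlapped is given as a description only, and the share of all genes without overlap was not counted. Myc stood at 21.6 ± 6.65 RPKM in siMyc with dox, against 165 ± 13.6 RPKM in siControl with dox, and at 4.69 ± 0.159 RPKM in siMyc without dox, against 19.7 ± 2.97 RPKM in siControl without dox. Kat2a stood at 7.69 ± 2.01 RPKM in siGcn5 with dox, against 54.4 ± 1.83 RPKM in siControl with dox, and at 1.65 ± 0.450 RPKM in siGcn5 without dox, against 21.9 ± 1.62 RPKM in siControl without dox. The other target was also lower: Myc was at 116 ± 17.9 RPKM in siGcn5 with dox and at 8.20 ± 1.56 RPKM in siGcn5 without dox, both called below siControl. Kat2a was at 18.8 ± 0.876 RPKM in siMyc with dox, called below siControl with dox, and at 17.0 ± 0.749 RPKM in siMyc without dox, not called (limma adjusted p = 0.13). In siControl with dox and siGcn5 with dox, replicate 1 was above replicate 2 for all 8 abundant members, by 1.07 to 1.53 times in siControl with dox and by 1.19 to 1.38 times in siGcn5 with dox. The scaling of the libraries shifted the median log2 change of all genes for dox in siControl, which was 0.17 with RPKM as deposited and -0.00036 after quantile normalization. The share of called genes that were higher moved with it, by more than 10 percentage points in 6 comparisons. That share was 62.3% for dox in siControl, against 49.9% after quantile normalization, 64.5% against 40.2% for dox in siMyc, and 61.6% against 43.0% for dox in siGcn5. It was 64.4% for siGcn5 without dox, 55.8% for siGcn5 with dox and 41.4% for siMyc against siGcn5 with dox, and after median-ratio scaling the same 3 shares were 49.3%, 43.8% and 52.8%.

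The promoters of these genes are shown because the CArG box is the site through which Srf acts. RefSeq windows of 250 bases before the start (build GRCm38.p6, not the build of the authors' values) were at hand for 8 of the 10 members, all but Tagln and Actg2, with 2 overlapping windows for Tnni1. The CArG box, CC and GG around 6 bases that are each A or T, matches on both strands wherever it matches on one, and was found in 1.48% of 32536 distinct windows. A CArG-like match, in which 1 of the 6 middle bases is G or C, was found in 7.23% of windows, and either of them in 8.59%. Among the members, Myl9, Acta1 and Actc1 had a CArG box, those 3 and Acta2 had CArG-like matches, and Cnn1, Tpm1, Tpm2 and Tnni1 had neither in this window. The GENCODE M21 annotation places 37 bases of the Cnn1 window, 193 of the Tpm1 window and 106 of the Tpm2 window in an exon of the same gene. Both Tnni1 windows lie with all 250 bases inside the gene. Sequence outside the windows was not searched. The E-box CACGTG, the best known binding letters of Myc, was in no member's window and in 6.04% of all windows. TATAAA on the strand of the gene was in the Acta1 window and in 7.55% of all windows. These are matches of letters and not shown to be bound. Among the abundant members, Acta1 had the largest log2 difference between siMyc and siControl with dox. The Acta1 window lies at chr8:123894776-123895025 on the minus strand, outside the gene as GENCODE M21 annotates it. It holds 3 matches, in capitals, of which the one nearest the start, 73 bases before it, is the CArG box:
Acta1: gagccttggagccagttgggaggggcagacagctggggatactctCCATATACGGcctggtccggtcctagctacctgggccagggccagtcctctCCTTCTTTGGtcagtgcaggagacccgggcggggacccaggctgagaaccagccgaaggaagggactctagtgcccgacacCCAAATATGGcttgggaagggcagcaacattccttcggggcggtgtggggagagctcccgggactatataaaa

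For Acta2, Myl9 and Actc1, each match (in capitals) is given with 10 bases on either side, to set the most abundant member beside the light chain and an actin gene that was close to silent. The Acta2 matches are CArG-like and start 84 and 34 bases before the start (chr19:34255438-34255467 and chr19:34255388-34255417, minus strand). The Myl9 matches are a CArG box 161 bases before the start and a CArG-like match 99 bases before it (chr2:156775293-156775322 and chr2:156775355-156775384, plus strand). Of the 4 Actc1 matches those shown are a CArG box 47 bases before the start and a CArG-like match 175 bases before it (chr2:114052903-114052932 and chr2:114053031-114053060, minus strand). GENCODE M21 places 217 bases of the Acta2 window, 44 of the Myl9 window and 12 of the Actc1 window in an exon of the same gene.
Acta2, 84 before the start: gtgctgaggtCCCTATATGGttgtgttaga
Acta2, 34 before the start: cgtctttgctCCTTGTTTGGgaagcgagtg
Myl9, 161 before the start: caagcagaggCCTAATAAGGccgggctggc
Myl9, 99 before the start: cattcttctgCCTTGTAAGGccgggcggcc
Actc1, 47 before the start: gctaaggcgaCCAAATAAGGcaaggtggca
Actc1, 175 before the start: ctccctagctCCCTATATGGccattgctct
The 10 letters of the Acta2 match 84 bases before the start are the same as those of the Actc1 match 175 bases before its start.

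In siControl without dox, the 8 abundant members stood at means of 102 (Acta1) to 4153 RPKM (Acta2), and with dox all 8 fell. Acta2 was at 1223 and 942 RPKM in siControl with dox, against 4184 and 4122 RPKM in siControl without dox, where it was the gene with the second highest value of all in both libraries. With dox its rank was 89 and 123. Its level with dox was 26.1% of that without dox (log2 change -1.95, SE 0.15, limma adjusted p = 1.7e-06). Tagln was at 584 and 454 RPKM in siControl with dox, against 1937 and 1881 RPKM in siControl without dox, a level of 27.2%. Cnn1 was at 72.8 and 54.7 RPKM with dox, against 236 and 222 RPKM without dox, a level of 27.9%. Myl9 was at 174 and 133 RPKM with dox, against 571 and 568 RPKM without dox, a level of 26.9%. These 4 genes fell the most, by 1.84 to 1.95 on the log2 scale.

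The tropomyosins and the other muscle actins fell less in siControl. Tpm1 was at 408 and 382 RPKM with dox, against 1084 and 1087 RPKM without dox, a level of 36.4%. Tpm2 was at 206 and 168 RPKM with dox, against 530 and 511 RPKM without dox, a level of 35.9%. Actg2, the enteric smooth muscle actin, was at 108 and 85.7 RPKM with dox, against 268 and 255 RPKM without dox, a level of 37.1%. Acta1, the skeletal muscle actin, was at 57.8 and 37.8 RPKM with dox, against 116 and 89.3 RPKM without dox, a level of 46.6% (log2 change -1.10, SE 0.19, limma adjusted p = 0.0004). All 8 were called lower, where 27.9% of all genes tested were called lower, and all 8 stayed called in each of the 19 alternative settings. The highest limma adjusted p among the 8 in those settings was 0.0054, for Acta1.

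**Figure D1:**
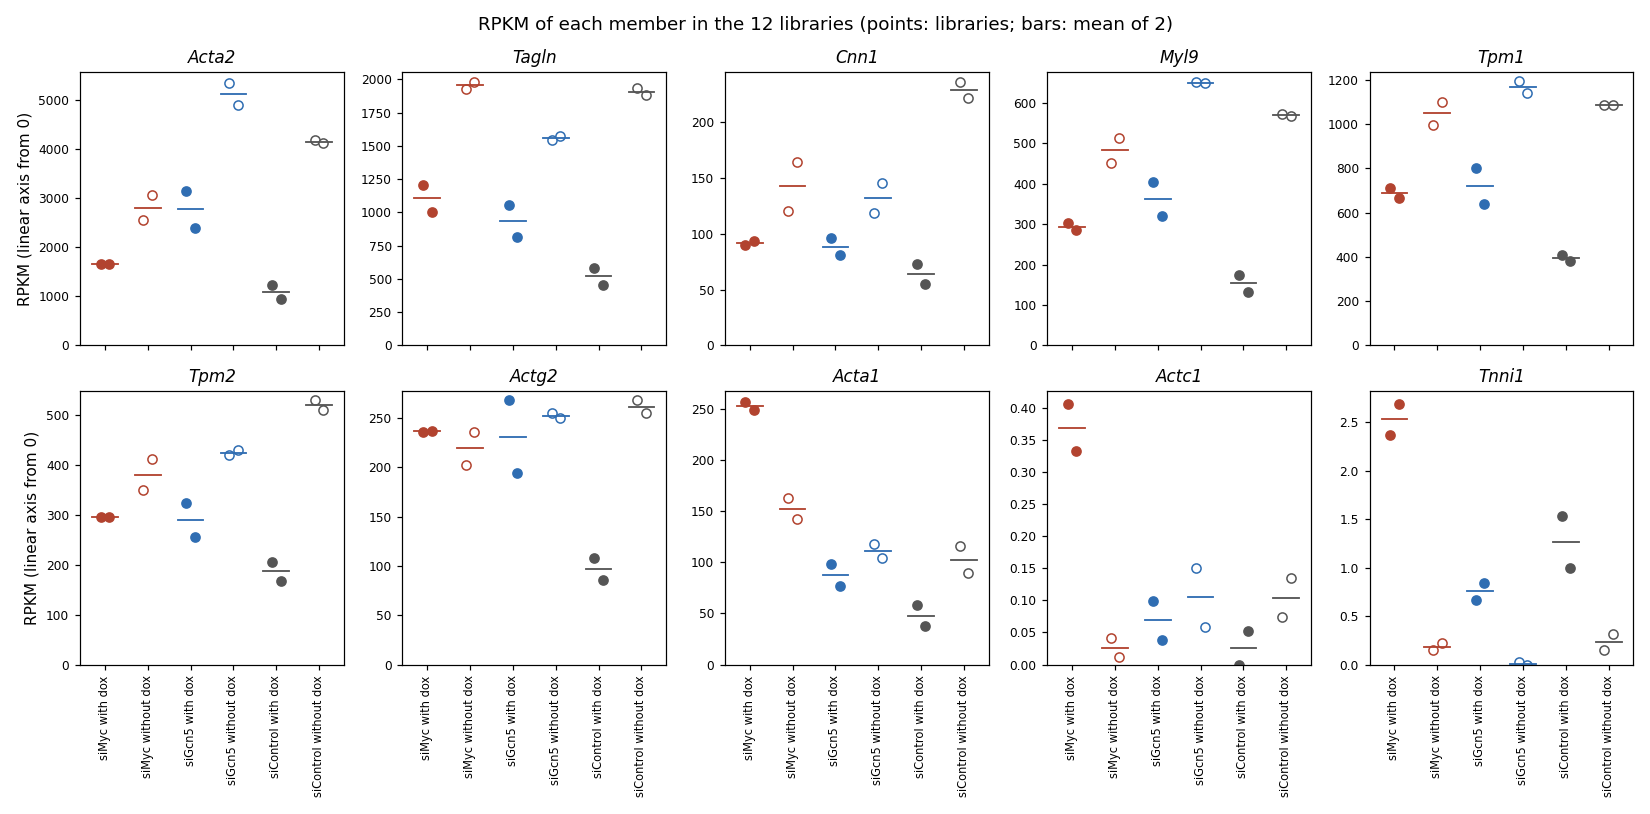
RPKM (linear axis from 0) of the 10 members in the 12 libraries, with points for libraries, filled with dox and open without dox, and bars for the mean of 2. For Acta2, both siControl libraries with dox (1223 and 942) lie below every other library, and for Acta1 both siMyc libraries with dox (256 and 249) lie above every other library.

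In siMyc, dox went with smaller falls, and for Acta1 with a rise. Acta2 was at 1656 and 1653 RPKM in siMyc with dox, against 2557 and 3069 RPKM in siMyc without dox, a level of 58.8% (log2 change -0.76, SE 0.15, limma adjusted p = 0.0025). After quantile normalization that change was -0.21 and was not called (adjusted p = 0.29). Tagln was at 1210 and 1005 RPKM in siMyc with dox, against 1930 and 1981 RPKM without dox, a level of 56.6% (log2 change -0.83, and -0.51 after quantile normalization). The groups did not overlap for either gene. Cnn1, Myl9, Tpm1 and Tpm2 were also called lower, at 64.3%, 60.8%, 65.7% and 77.6% of the level without dox. Cnn1 lost its call without siMyc without dox replicate 2 (limma adjusted p = 0.12) and without siMyc with dox replicate 1 (adjusted p = 0.060). Tpm2 lost it when any 1 of 7 libraries was left out and with no filter on low genes (highest limma adjusted p 0.25). Thus 6 of the 8 abundant members were called lower, where 15.9% of all genes were. Actg2 was at 236 and 237 RPKM with dox, against 203 and 236 RPKM without dox (log2 change 0.11, SE 0.15, limma adjusted p = 0.57). Acta1 was at 256 and 249 RPKM in siMyc with dox, against 163 and 142 RPKM in siMyc without dox (log2 change 0.73, SE 0.19, limma adjusted p = 0.010), where 28.9% of all genes were called higher. Its call was lost without siMyc without dox replicate 2, with an adjusted p of 0.071.

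In siGcn5, dox went with called falls of 6 abundant members. The dox change in siGcn5 was not tested against that in siMyc. Acta2 was at 3159 and 2399 RPKM in siGcn5 with dox, against 5359 and 4909 RPKM in siGcn5 without dox, where it had the highest value of all genes in both libraries. Its level with dox was 54.1% of that without (log2 change -0.90, SE 0.15, limma adjusted p = 0.00074). Tagln, Cnn1, Myl9, Tpm1 and Tpm2 were at 60.2%, 67.1%, 55.7%, 61.8% and 68.4% of their levels without dox. These 6 of the 8 abundant members were called lower, where 22.4% of all genes were. Cnn1 lost its call without siGcn5 without dox replicate 2 and without siGcn5 with dox replicate 2 (limma adjusted p = 0.11 and 0.10). Actg2 was at 269 and 194 RPKM in siGcn5 with dox, against 255 and 250 RPKM in siGcn5 without dox, so that the groups overlapped (log2 change -0.15, SE 0.15, limma adjusted p = 0.42). Without siGcn5 with dox replicate 2 the sign of that change turned (0.087), and without replicate 1 it was called lower (adjusted p = 0.035). Acta1 was at 98.0 and 77.1 RPKM with dox, against 118 and 104 RPKM without dox, with no overlap but no call (log2 change -0.34, SE 0.19, limma adjusted p = 0.15).

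The difference between the dox changes was tested directly as an interaction. With siMyc, the dox change of all 8 abundant members was above that in siControl, by 0.85 (Tpm1) to 1.83 (Acta1) on the log2 scale, where 24.8% of all genes had a called interaction in that direction. The limma adjusted p of these 8 ran up to 0.0018, for Cnn1, and the interaction of Acta2 was 1.19, against 1.79 after quantile normalization. With siGcn5, 7 of the 8 had a called interaction in the same direction, from 0.76 (Tpm1) to 1.28 (Actg2), where 11.4% of all genes had one. Acta1 had an interaction of 0.76 with siGcn5 and an adjusted p of 0.062, and was called under 4 of 19 alternative settings. Both tests share the siControl libraries, so their directions are not independent of each other.

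**Figure D2:**
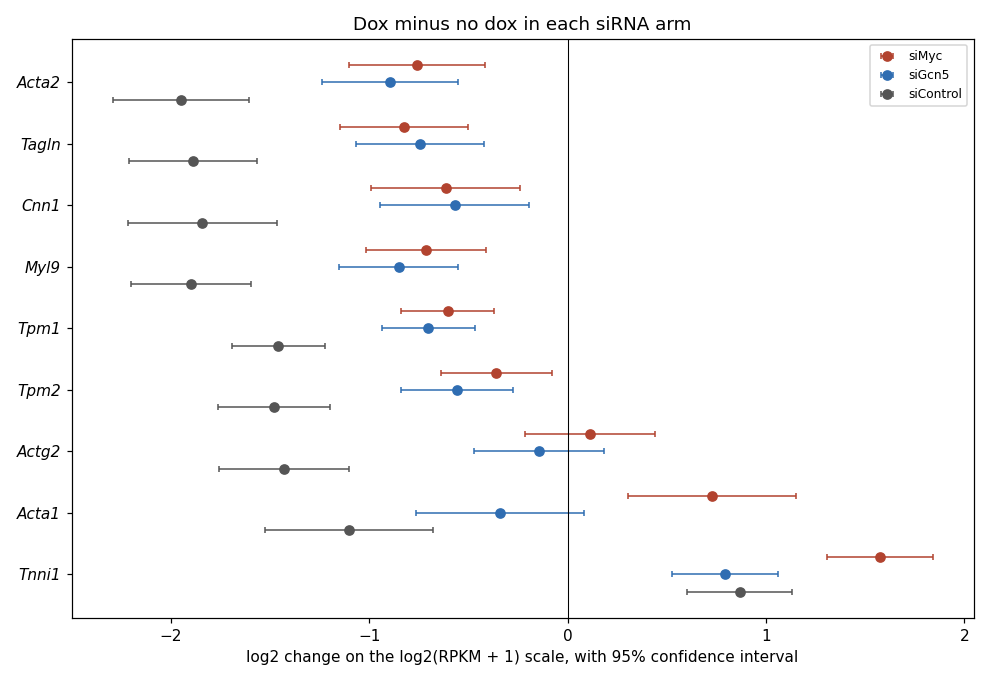
Log2 change with dox (dox minus no dox, log2(RPKM + 1) scale) of the 9 members tested, with 95% confidence intervals from limma, in siMyc, siGcn5 and siControl. In siControl 8 members lie between -1.95 and -1.10, while Actg2 in siMyc (0.11) and in siGcn5 (-0.15) has intervals that hold 0.

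With dox, every abundant member stood at a higher RPKM in siMyc than in siControl. Acta1 differed most: 256 and 249 RPKM in siMyc with dox, against 57.8 and 37.8 RPKM in siControl with dox, 5.28 times as much (log2 difference 2.41, SE 0.19, limma adjusted p = 1.6e-06). Actg2 was at 236 and 237 RPKM in siMyc with dox, against 108 and 85.7 RPKM in siControl with dox, 2.44 times as much. Tagln was at 1210 and 1005 RPKM, against 584 and 454 RPKM, 2.13 times as much. Each of these 3 was higher in both siMyc libraries than in either siControl library. Myl9 was 1.91 times, Tpm1 1.74 times, Tpm2 1.58 times, Acta2 1.53 times and Cnn1 1.44 times as high in siMyc with dox as in siControl with dox. Acta2 had a log2 difference of 0.62 (SE 0.15, limma adjusted p = 0.0039), which was 1.41 after quantile normalization. All 8 were called higher, where 37.7% of all genes were called higher. Cnn1 lost its call without siControl with dox replicate 2 (log2 difference 0.33, limma adjusted p = 0.15) and without siMyc with dox replicate 2 (adjusted p = 0.061).

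Without dox, the picture with siMyc was different. Acta2 was at 2557 and 3069 RPKM in siMyc without dox, against 4184 and 4122 RPKM in siControl without dox (log2 difference -0.57, SE 0.15, limma adjusted p = 0.024). Cnn1 was at 120 and 164 RPKM in siMyc, against 236 and 222 RPKM in siControl (log2 difference -0.70, SE 0.17, limma adjusted p = 0.015). Tpm2 was at 349 and 413 RPKM in siMyc, against 530 and 511 RPKM in siControl (log2 difference -0.45, SE 0.13, limma adjusted p = 0.027). These 3 of the 8 abundant members were called lower, where 10.7% of all genes were. All 3 lost their call without either siControl without dox library or without siMyc without dox replicate 1, with limma adjusted p-values of 0.060 to 0.20. Acta2 and Tpm2 also lost it with no filter on low genes (adjusted p = 0.085 and 0.064) and after quantile normalization (0.098 and 0.25). Tagln, at 1930 and 1981 RPKM in siMyc against 1937 and 1881 RPKM in siControl, and Tpm1, at 997 and 1099 RPKM in siMyc against 1084 and 1087 RPKM in siControl, overlapped between the groups. The 95% confidence interval of the difference ran from -0.29 to 0.36 for Tagln and from -0.29 to 0.18 for Tpm1. Acta1 was at 163 and 142 RPKM in siMyc without dox, against 116 and 89.3 RPKM in siControl without dox, and missed the threshold (log2 difference 0.58, SE 0.19, limma adjusted p = 0.052). It was called in 8 of 19 alternative settings: at a mean RPKM of at least 5 (adjusted p = 0.045), after median-ratio scaling (0.048), with voom (0.038), with the replicate block (0.0033), and without any 1 of the siControl with dox or siGcn5 with dox libraries (0.023 to 0.043).

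With siGcn5 and dox, the abundant members were also above siControl. Acta2 was at 3159 and 2399 RPKM in siGcn5 with dox, against 1223 and 942 RPKM in siControl with dox, 2.57 times as much (log2 difference 1.36, SE 0.15, limma adjusted p = 9.8e-05). Actg2 was at 269 and 194 RPKM in siGcn5, against 108 and 85.7 RPKM in siControl, 2.38 times as much. Myl9 was at 405 and 320 RPKM in siGcn5, against 174 and 133 RPKM in siControl, 2.36 times as much. In these 3 genes both siGcn5 libraries lay above both siControl libraries although replicate 1 exceeded replicate 2 in each group. Acta1 was 1.83 times, Tpm1 1.83 times, Tagln 1.81 times, Tpm2 1.55 times and Cnn1 1.38 times as high in siGcn5 with dox as in siControl with dox. All 8 were called higher, where 31.4% of all genes were. Without siControl with dox replicate 2 the log2 difference of Acta1 was 0.58, against 0.88. Cnn1 (limma adjusted p = 0.036) lost its call in 4 of 19 settings, among them without siControl with dox replicate 2 (log2 difference 0.27, adjusted p = 0.27) and without siGcn5 with dox replicate 1 (0.35, adjusted p = 0.20).

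Without dox, siGcn5 and siControl differed in few of these genes. Only Cnn1 was called among the 8 abundant members in the fit of RPKM as deposited, at 118 and 145 RPKM in siGcn5 without dox, against 236 and 222 RPKM in siControl without dox (log2 difference -0.80, SE 0.17, limma adjusted p = 0.0025). That is 1 of 8, where 57.3% of all genes were called in either direction, and the call held in all 19 alternative settings. Acta2 was at 5359 and 4909 RPKM in siGcn5 without dox, against 4184 and 4122 RPKM in siControl without dox, with no overlap (log2 difference 0.30, SE 0.15, limma adjusted p = 0.12). Tagln, in the other direction, was at 1547 and 1575 RPKM in siGcn5, against 1937 and 1881 RPKM in siControl (log2 difference -0.29, SE 0.15, limma adjusted p = 0.11). The confidence interval of Acta2 ran from -0.039 to 0.65 and that of Tagln from -0.61 to 0.032. Scaling decided some of these calls. After quantile normalization Acta2 (0.41, adjusted p = 0.043) and Myl9 (0.41, adjusted p = 0.033) were called higher, and after median-ratio scaling Tagln (-0.44, adjusted p = 0.018) and Tpm2 (-0.44, adjusted p = 0.0095) were called lower. Tpm2 was also called lower without either siGcn5 with dox library (-0.29, adjusted p = 0.035 and 0.036).

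**Figure D3:**
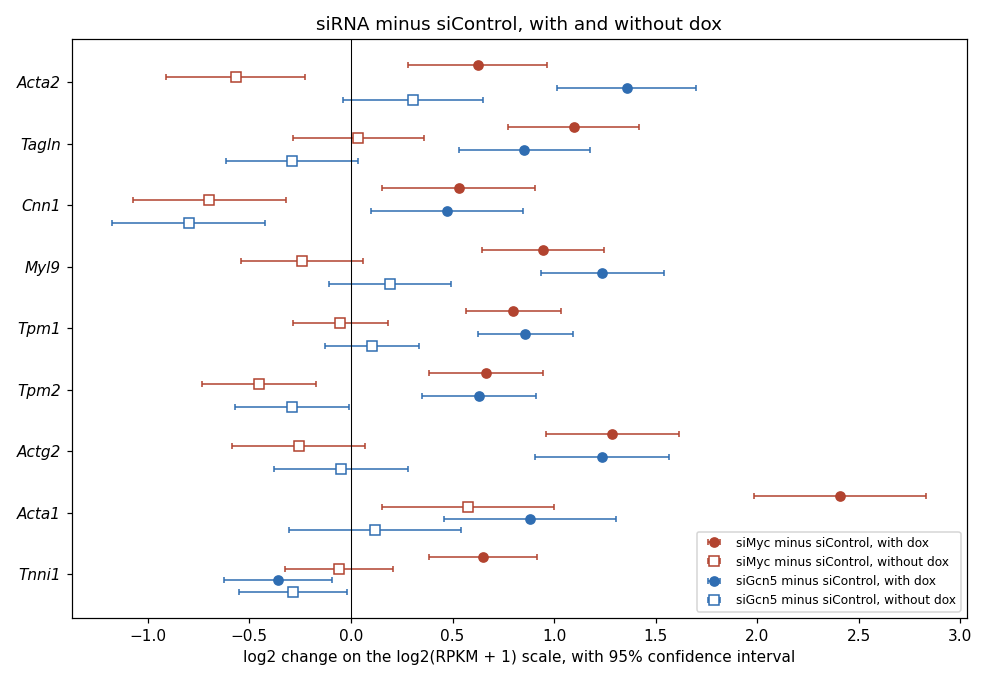
Log2 difference between each siRNA and siControl (log2(RPKM + 1) scale, 95% confidence intervals from limma) of the 9 members tested, with dox (filled circles) and without dox (open squares). With dox all 8 abundant members lie right of 0 for both siRNAs, from 0.47 (Cnn1, siGcn5) to 2.41 (Acta1, siMyc), and without dox Cnn1 lies left of 0 for both.

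Acta2 and Acta1 differed between the siRNAs themselves with dox. Acta2 was at 1656 and 1653 RPKM in siMyc with dox, against 3159 and 2399 RPKM in siGcn5 with dox (log2 difference -0.73, SE 0.15, limma adjusted p = 0.0018), and lost this call after quantile normalization (-0.35, adjusted p = 0.062). Acta1 went the other way, at 256 and 249 RPKM in siMyc with dox, against 98.0 and 77.1 RPKM in siGcn5 with dox (log2 difference 1.53, SE 0.19, limma adjusted p = 5.3e-05). Of the 8 abundant members these 2 were called, where 65.9% of all genes were called in either direction. Actg2 was at 236 and 237 RPKM in siMyc and at 269 and 194 RPKM in siGcn5, with a 95% confidence interval of the difference from -0.28 to 0.38. Cnn1 had an interval from -0.32 to 0.43, Tpm1 from -0.29 to 0.17 and Tpm2 from -0.25 to 0.32.

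Set against Acta2 in the same library, Acta1 was a minor actin in every group but its share varied. Acta1 stood at 15.3% ± 0.310 of the Acta2 RPKM in siMyc with dox, against 5.50% ± 1.22 in siMyc without dox. The share was 3.16% ± 0.0779 in siGcn5 with dox, against 2.15% ± 0.0590 in siGcn5 without dox, and 4.37% ± 0.502 in siControl with dox, against 2.46% ± 0.422 in siControl without dox. In each arm both libraries with dox had a higher share than both without. Actg2 stood at 14.3% ± 0.0552 of Acta2 in siMyc with dox, against 7.81% ± 0.180 in siMyc without dox, at 8.30% ± 0.285 in siGcn5 with dox, against 4.93% ± 0.235 in siGcn5 without dox, and at 8.98% ± 0.160 in siControl with dox, against 6.30% ± 0.165 in siControl without dox. Tagln stood at 66.9% ± 8.68 of Acta2 in siMyc with dox, at 33.8% ± 0.400 in siGcn5 with dox and at 48.0% ± 0.312 in siControl with dox, and in siControl without dox it was 46.0% ± 0.478. Within siControl the Tagln share thus moved little with dox while both levels fell. Reads could in principle be shared between actins: coding sequences of the 6 actins were 81.5% to 88.7% identical, and of all stretches of 50 bases 1.83% in Acta1, 0.326% in Acta2 and none in Actg2 and Actc1 were found in another of the 6 (GENCODE M21 transcripts). Pseudogenes and the authors' handling of reads with several matches were not part of that comparison.

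**Figure D4:**
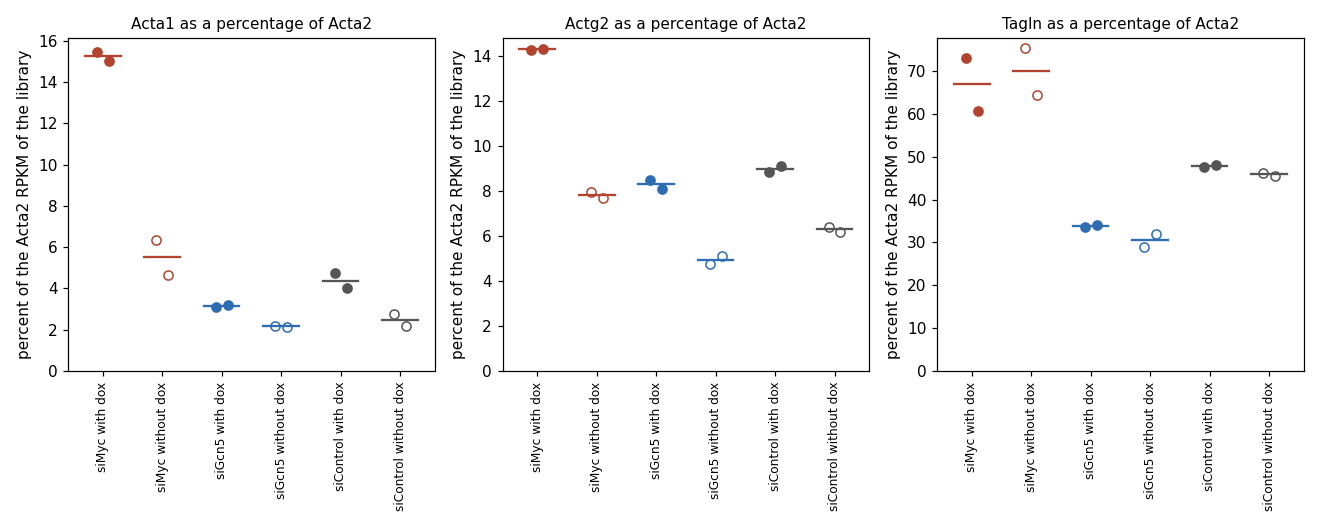
RPKM of Acta1, Actg2 and Tagln as a percentage of the Acta2 RPKM of the same library (linear axes from 0), with points for libraries and bars for the mean of 2. Acta1 reaches 15.3% in siMyc with dox and lies between 2.15% and 5.50% in the other 5 groups.

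Tnni1 and Actc1 were scarce, unlike Acta1, the other member from striated muscle. Tnni1 passed the filter on low values through groups with dox alone, so its tests are not independent of its selection and it is left out of the counts above. It was at 2.37 and 2.69 RPKM in siMyc with dox (173 and 563 recovered reads), against 0.149 and 0.221 RPKM in siMyc without dox (26 and 32 reads). It was at 0.663 and 0.844 RPKM in siGcn5 with dox (75 and 87 reads), against 0.0217 and 0 RPKM in siGcn5 without dox (3 and 0 reads, where 3 reads would be 0.0312 RPKM in the library at 0). It was at 1.53 and 0.996 RPKM in siControl with dox (227 and 108 reads), against 0.153 and 0.317 RPKM in siControl without dox (23 and 53 reads). In all 3 arms both libraries with dox lay above both without. Tnni1 reached 1 RPKM in both libraries of siMyc with dox and in replicate 1 of siControl with dox. Comparisons with either group, and with siMyc with dox above all, are thus bound to its selection. For dox in siControl, 46.1% of all genes were called higher. Actc1 was below 1 RPKM in every library, was not tested, and had its highest values in siMyc with dox, at 0.406 and 0.333 RPKM (37 and 87 reads). In the other 10 libraries Actc1 had 0 to 28 reads.

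Ordered by mean RPKM over the 6 groups, siControl with dox was last for all 8 abundant members. Acta2, Myl9 and Tpm1 were highest in siGcn5 without dox, Cnn1, Tpm2 and Actg2 in siControl without dox, Tagln in siMyc without dox and Acta1 in siMyc with dox. Neighbours overlapped in that order at the top for Tagln (siMyc without dox and siControl without dox) and for Actg2 (siControl without dox and siGcn5 without dox). As a description, log2(RPKM + 1) of the 7 members other than Acta1, Tnni1 and Actc1 correlated over the 12 libraries at Pearson r from 0.71 (Cnn1 with Actg2) to 0.987 (Myl9 with Tpm1). With the same 7, Acta1 correlated at 0.232 (Acta2) to 0.696 (Actg2), and Tnni1 at -0.784 (Acta2) to -0.332 (Actg2). The 12 libraries form 6 groups of 2, so these values describe differences between groups more than between independent samples. Among 8740 other genes with a mean RPKM of at least 5, those most like Acta2 by Pearson r were Cald1 (0.992), Npr2 (0.989) and Unc119 (0.989). Those most like Acta1 were Atp6v0c (0.976), its annotated pseudogene copy Atp6v0c-ps2 (0.976), which may share reads with it, and Psap (0.971).

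Other smooth muscle and cytoskeletal genes were described from lists of names. Of 24 smooth muscle contractile and associated genes 23 were tested, and with dox in siControl 18 were lower and 1 was higher, with a median log2 change of -0.91, against 0.17 for all genes, of which 27.9% were lower. Myh11, the smooth muscle myosin heavy chain, was at 2.03 ± 0.442 RPKM with dox, against 10.3 ± 1.36 RPKM without dox in siControl. Lmod1, a smooth muscle leiomodin, was at 4.64 ± 0.769 RPKM with dox, against 19.8 ± 0.828 RPKM without dox, and Cnn2 at 173 ± 21.5 RPKM with dox, against 521 ± 2.98 RPKM without dox. Mylk, the myosin light chain kinase, was at 0.639 ± 0.0574 RPKM with dox, against 3.53 ± 0.0453 RPKM without dox. With siMyc and dox, 17 of the 23 were higher and 2 lower than in siControl with dox (median 0.64, against 0.018 for all genes), and with siGcn5 and dox 17 were higher and 1 lower (median 0.66, against 0.051). Over all genes 37.7% were higher and 37.1% lower with siMyc and dox, and 31.4% higher and 24.9% lower with siGcn5 and dox. Pdlim3, a PDZ and LIM domain protein of actin filaments, was at 13.0 and 8.99 RPKM in siMyc with dox, against 0.638 and 0.671 RPKM in siControl with dox (log2 difference 2.84). Pdlim3 passed the filter on low values through siMyc with dox, so its test there is not independent of its selection. It is counted among the 17 higher with siMyc. Myh11 was at 18.0 ± 4.84 RPKM in siGcn5 with dox, against 2.03 ± 0.442 RPKM in siControl with dox, and at 38.6 ± 11.1 RPKM in siGcn5 without dox, against 10.3 ± 1.36 RPKM in siControl without dox. Myh11 and Mylk were called higher with siGcn5 both with and without dox. Of the whole list, 8 of the 23 (34.8%) were higher and 2 (8.7%) lower with siGcn5 without dox. Over all genes 36.9% were higher and 20.4% lower there, so the share of higher genes in the list was near that of all genes.

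The cytoplasmic actins fell with dox in siControl too, by less than Acta2. Actb, the cytoplasmic beta actin, was at 1304 and 1053 RPKM in siControl with dox, against 2104 and 1940 RPKM in siControl without dox (log2 change -0.79, SE 0.10, limma adjusted p = 6.2e-05). Actg1, the gamma cytoplasmic actin, was at 1609 and 1471 RPKM with dox, against 2550 and 2549 RPKM without dox in siControl. The RPKM of Acta2 was 91.6% ± 3.05 of Actb in siControl with dox, against 206% ± 9.66 in siControl without dox. That percentage was 262% ± 37.2 in siGcn5 with dox, against 394% ± 34.9 in siGcn5 without dox. It was 117% ± 4.37 in siMyc with dox, against 151% ± 24.7 in siMyc without dox. Of 20 non-muscle myosin and actin genes, 17 were lower and 1 was higher with dox in siControl (median -1.03), where 27.9% of all genes were lower. With dox 18 of 20 were higher with siMyc (median 0.76), and with siGcn5 11 were higher and 2 lower (median 0.49). Over all genes 37.7% were higher with siMyc and 31.4% with siGcn5. Myh10, a non-muscle myosin heavy chain, was at 15.5 and 35.9 RPKM in siGcn5 without dox, against 96.6 and 101 RPKM in siControl without dox (log2 difference -2.02, SE 0.35, limma adjusted p = 0.00081). Its level in siGcn5 without dox was 25.7 RPKM on average and 15.5 RPKM without replicate 2. With dox Myh10 was at 12.3 and 21.0 RPKM in siGcn5, against 38.8 and 43.3 RPKM in siControl. Of 28 genes of actin turnover 14 were lower and 5 higher with dox in siControl (median -0.21), where 27.9% of all genes were lower and 46.1% higher, with Gsn, the severing protein gelsolin, at 154 ± 21.3 RPKM with dox, against 556 ± 2.99 RPKM without dox. With siMyc and dox 19 of the 28 (67.9%) were higher and 4 (14.3%) lower, where 37.7% of all genes were higher and 37.1% lower. With siGcn5 and dox 10 (35.7%) were higher and 6 (21.4%) lower, near the shares over all genes of 31.4% and 24.9%.

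Srf and its coactivator Mkl1 were lower with dox in siControl. Srf was at 19.4 and 15.4 RPKM in siControl with dox, against 24.2 and 22.9 RPKM in siControl without dox (log2 change -0.42, SE 0.11, limma adjusted p = 0.0053), and was not called in any of the siRNA comparisons. Mkl1 was at 12.4 and 9.67 RPKM with dox, against 21.7 and 21.5 RPKM without dox in siControl (log2 change -0.92). With dox Mkl1 was at 13.9 ± 1.02 RPKM in siMyc and at 16.7 ± 2.17 RPKM in siGcn5, both called above siControl with dox (log2 differences 0.32 and 0.56). Mkl2 was at 4.38 ± 0.330 RPKM in siGcn5 with dox, against 2.66 ± 0.0332 RPKM in siControl with dox. Myocd, the myocardin of smooth and cardiac muscle, was under 1 RPKM in every library and was not tested.

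**Figure D5:**
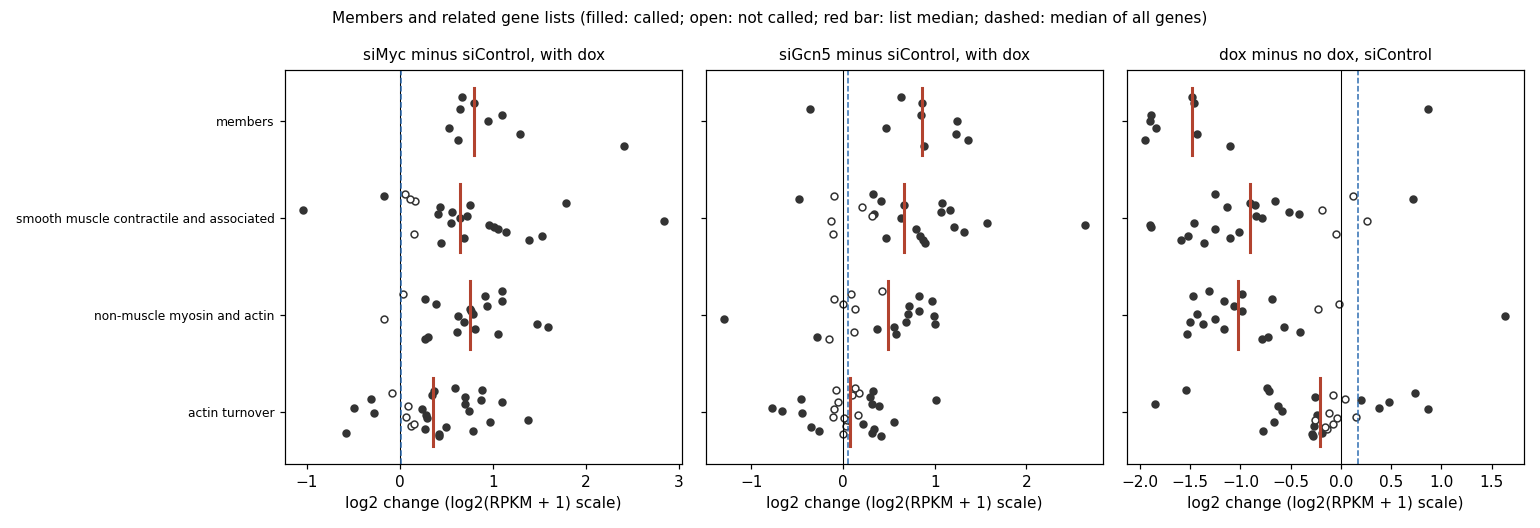
Log2 change (log2(RPKM + 1) scale) of each tested member and of each tested gene in 3 related lists, for siMyc minus siControl with dox, siGcn5 minus siControl with dox, and dox minus no dox in siControl, with filled points for called genes, open points for the rest, red bars for list medians and a dashed line for the median of all genes. The medians of the 9 members tested, Tnni1 included, are 0.80, 0.86 and -1.48, against 0.018, 0.051 and 0.17 for all genes. Without Tnni1, which passed the filter only through groups with dox, the medians of the 8 abundant members are 0.87, 0.87 and -1.66.

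Markers of cell types were set beside these values. All 13 fibroblast markers were at 1 RPKM or more in at least 1 library, and their summed RPKM was 2753 and 2429 in siControl with dox, against 9941 and 9811 in siControl without dox. With siMyc the sum was 6443 and 6357 with dox, against 9479 and 9534 without dox, and with siGcn5 it was 4400 and 3770 with dox, against 7608 and 7872 without dox. This sum, like the 8 abundant members, was lowest in siControl with dox. The single markers were less uniform than the members. Of the 13, 11 were called lower and 1 higher with dox in siControl. With dox, 11 were higher and 0 lower in siMyc than in siControl. In siGcn5 with dox only 6 were higher and 2 were lower, where 31.4% of all genes were higher and 24.9% lower. The 10 markers of pericytes and vascular smooth muscle summed to 57.0 and 46.4 RPKM in siControl with dox, against 119 and 111 RPKM in siControl without dox, with Mcam the largest part, and 4 of the 10 were under 1 RPKM in every library. Of 35 markers of skeletal and cardiac muscle 23 were under 1 RPKM in every library, and Myod1, the master factor of skeletal muscle, was at most 0.04 RPKM. The sum of the 35 was 290 and 278 RPKM in siMyc with dox, against 101 and 95.2 RPKM in siMyc without dox. It was 231 and 236 RPKM in siGcn5 with dox, against 53.3 and 52.0 RPKM in siGcn5 without dox, and 199 and 167 RPKM in siControl with dox, against 70.6 and 70.5 RPKM in siControl without dox. This sum was thus higher with dox in each arm, unlike Acta1, and highest in siMyc with dox, where Acta1 was also highest. Most of it with dox was Ckb, the brain-type creatine kinase, at 243 and 231 RPKM in siMyc with dox. Of the 10 tested, 5 were higher and 2 lower with dox in siControl, where 46.1% of all genes were higher and 27.9% lower. With dox, 4 of the 10 were higher and 1 lower in siMyc than in siControl, against 37.7% higher and 37.1% lower over all genes. For higher genes, both counts were near the shares over all genes. Endothelial and blood markers summed to at most 12.3 and 8.76 RPKM. The part of cell composition in the members' changes was not tested.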

How the data were processed

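The authors deposited 1 table of RPKM values per gene and library, for 12 libraries and 23284 gene symbols. Libraries were stranded and made from total RNA after removal of ribosomal RNA, per the labels' protocols. The submitters' processing notes name the build mm9, TopHat2 2.0.9, HTSeq, affy, edgeR and Bowtie 0.12.8. Annotation, strand handling and low-value filtering by the authors: not given in the sources used here. Here the RPKM values were used unscaled. RPKM is relative to each library's total, so total RNA per cell is not measured. Whole reads, recovered from the step size of each gene's values (tolerance 0.05 read, all 20788 genes with a value), gave the depth. Replicates differed by more than sampling noise (chi-square per degree of freedom 33.6 to 92.5), so none were merged.

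limma 3.58.1 in R 4.3.3 was fitted with an intensity trend to log2(RPKM + 1) over all 12 libraries, 1 term per group (6 residual and 4.17 prior degrees of freedom), for 10 comparisons, and was tested on simulated data. Alternatives were a pseudocount of 0.1, no filter, a mean RPKM of at least 5, median-ratio scaling, quantile normalization, limma voom on recovered reads, a replicate block, and leaving out each library. The members and lists were chosen with earlier results of these data known. Besides the members, named genes were up to 3 called genes with the largest change from a list in a comparison, a few fixed ones (Srf, Mkl1, Mkl2, Myocd, Actb, Actg1, Myh11, Mylk), the siRNA targets, and the 3 genes most like Acta2 and Acta1. Marker genes named beside a sum were chosen after their values were seen. Promoters are from RefSeq. Some genes and 1 list were withheld and are not reported here.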

Additional observations from a re-analysis of the deposited data

Results flagged for a closer look

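The change with dox differed between siMyc and siControl, by the interaction test in limma, for Acta2 (1.19 on the log2 scale), Tagln (1.06), Cnn1 (1.23), Myl9 (1.18), Tpm1 (0.85), Tpm2 (1.12), Actg2 (1.54), Acta1 (1.83) and Tnni1 (0.71). It differed between siGcn5 and siControl for Acta2 (1.05), Tagln (1.14), Cnn1 (1.27), Myl9 (1.05), Tpm1 (0.76), Tpm2 (0.92) and Actg2 (1.28). A positive value means that the gene fell less, or rose more, with dox under the siRNA than under siControl. The value of Tnni1 comes from a gene that passed the filter only through groups with dox. With 2 libraries in each group, single libraries were not screened for outlying values.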

How the results depend on the processing

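Of the called members other than Tnni1, which was not tested at a mean RPKM of at least 5, those called in each of the 19 alternatives were 8 of 8 for dox in siControl and for the siMyc interaction, 7 of 8 for siMyc with dox and for siGcn5 with dox, 7 of 7 for the siGcn5 interaction, 5 of 6 for dox in siGcn5, 3 of 7 for dox in siMyc, 1 of 2 for siMyc against siGcn5 with dox, 1 of 1 for siGcn5 without dox and 0 of 3 for siMyc without dox. The counts that follow include Tnni1 where it was tested. Members called for siGcn5 without dox numbered 1 with RPKM as deposited, 2 with a pseudocount of 0.1, with voom and with the replicate block, 4 after median-ratio scaling and after quantile normalization, and 1 to 2 when a library was left out. For siMyc without dox the count was 1 with no filter and 1 after quantile normalization, against 3, and 0 to 4 when a library was left out. For dox in siMyc it was 5 to 8 when a library was left out. Over all genes, 3787 were called for dox in siMyc at a mean RPKM of at least 5, against 5899, by construction from fewer genes tested. Leaving out a library gave 1068 to 3492 genes for siMyc without dox and 1660 to 3920 for the siGcn5 interaction.

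Signs turned only for values not called with RPKM as deposited. After median-ratio scaling these were Tagln with siMyc without dox (-0.0013), Tpm1 (-0.045) and Acta1 (-0.028) with siGcn5 without dox, and Tpm1 for siMyc against siGcn5 with dox (0.084). After quantile normalization they were Actg2 for dox in siMyc (-0.025), Myl9 (0.052) and Tpm1 (0.35) with siMyc without dox, and Tpm1 for siMyc against siGcn5 with dox (0.27). The siGcn5 interaction of Tnni1 was -0.074, against 0.90 with a pseudocount of 0.1 and 3.52 with voom (adjusted p = 0.020). When a library was left out, that interaction ran between -0.25 and 0.097. With siMyc without dox, Tnni1 ran between -0.15 and 0.038 and Tpm1 between -0.12 and 0.017, and with siGcn5 without dox Acta1 ran between -0.065 and 0.30. For siMyc against siGcn5 with dox the ranges were -0.22 to 0.10 for Tpm1, -0.067 to 0.18 for Cnn1, -0.13 to 0.20 for Tpm2 and -0.18 to 0.28 for Actg2, and for dox in siGcn5 the range of Actg2 was -0.38 to 0.087. Tnni1 lost its call for siGcn5 with dox in 4 settings (adjusted p 0.074 to 0.21) and its siMyc interaction with voom (0.081). The cause was not tested.

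Same-numbered replicates deviated together at r of 0.093 to 0.489 over 15 pairs of groups, 14 of them over 0.1. The main fit holds no replicate term, so a difference shared by same-numbered libraries was not removed from it. With the replicate block, more genes were called in every comparison. For siGcn5 without dox 8489 were called, against 7554, and for the siGcn5 interaction 5061, against 3409. Among the members Acta1 was called lower for dox in siGcn5 (adjusted p = 0.019), higher with siMyc without dox (0.0033) and in the siGcn5 interaction (0.0051), and Tagln lower with siGcn5 without dox (0.041). Depth limits Tnni1 and Actc1, with 0 to 563 reads per library, and 2 libraries per group limit all tests.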
